A study of Mus musculus with 12 samples.

Results

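The genes described here are 10 type I interferon-stimulated genes: Irf7, Isg15, Usp18, Oasl2, Rsad2, Cmpk2, Ifit1, Ifit2, Ifit3 and Mx1. They were chosen by name, as genes that classically follow type I interferon, and each was matched by its symbol in GENCODE mouse release M21 to 1 row of the deposited count table. The table held 21965 genes, of which 15046 passed the filter on low counts, and all 10 of the interferon-stimulated genes were among these. RNA was taken from mouse gingiva, the mucosa around the teeth, in 4 groups of 3 libraries. WT mice were C57BL/6, and CybbKO mice carry the genotype label Cybb-/-, a knockout that is not restricted to a cell type. Cybb encodes the catalytic subunit of Nox2, the oxidase with which phagocytes make superoxide. In the ligated groups a silk thread was tied around an upper molar, which gathers bacteria and inflames the gum, and tissue was taken after 8 days, whereas naive mice had no ligature. The labels give an age under 12 weeks for all of them.

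Type I interferons are secreted proteins that cells release after sensing foreign or misplaced nucleic acid. They bind a receptor made of Ifnar1 and Ifnar2, whose kinases Jak1 and Tyk2 activate transcription factors of the STAT family. With Irf9, Stat2 takes part in the complex that binds the interferon-stimulated response element in the promoters of interferon-stimulated genes. Their products detect or degrade viral RNA, stall translation, tag proteins and, in part, switch the signal off again. Many of the same genes also answer to interferon-lambda and, more weakly, to interferon-gamma.

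The promoters are shown for the response element, whose letters were not used in the choice by name. Genes chosen as following type I interferon are likely to hold it, so matches are not independent of the choice. A promoter entry in the RefSeq table of GRCm38.p6, running from 250 bases before the start of the gene to 50 bases after it, was found for 8 of the 10 genes, and Mx1 and Usp18 were not matched. The core of the response element was searched as GAAANNGAAA on both strands. It was present in the promoter of 4 of these 8 genes, Ifit1, Ifit3, Isg15 and Rsad2, and in the promoters of 3.99% of all 27025 genes in the table. The windows of these 4 genes are printed below 5′ to 3′ along the strand of the gene, with the matched letters in capitals.
Ifit1, chr19:34640639-34640938, plus strand: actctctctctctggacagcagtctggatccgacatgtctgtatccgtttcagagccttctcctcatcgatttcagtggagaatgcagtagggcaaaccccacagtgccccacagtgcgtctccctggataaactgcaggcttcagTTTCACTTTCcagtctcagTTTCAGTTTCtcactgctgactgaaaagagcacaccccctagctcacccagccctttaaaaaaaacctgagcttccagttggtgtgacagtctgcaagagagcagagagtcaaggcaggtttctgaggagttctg
Ifit3, chr19:34583279-34583578, plus strand: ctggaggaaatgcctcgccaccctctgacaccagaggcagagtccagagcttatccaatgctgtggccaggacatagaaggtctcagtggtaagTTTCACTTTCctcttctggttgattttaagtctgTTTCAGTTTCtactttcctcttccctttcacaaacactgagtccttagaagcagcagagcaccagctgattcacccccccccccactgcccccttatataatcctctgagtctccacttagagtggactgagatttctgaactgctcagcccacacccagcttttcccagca
Isg15, chr4:156200769-156201068, minus strand: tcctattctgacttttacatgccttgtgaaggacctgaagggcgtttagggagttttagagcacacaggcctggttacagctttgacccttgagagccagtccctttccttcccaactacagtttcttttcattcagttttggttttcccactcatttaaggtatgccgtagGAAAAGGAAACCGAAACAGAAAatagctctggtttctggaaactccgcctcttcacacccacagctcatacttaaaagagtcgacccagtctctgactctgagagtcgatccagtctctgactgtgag
Rsad2, chr12:26456403-26456702, minus strand: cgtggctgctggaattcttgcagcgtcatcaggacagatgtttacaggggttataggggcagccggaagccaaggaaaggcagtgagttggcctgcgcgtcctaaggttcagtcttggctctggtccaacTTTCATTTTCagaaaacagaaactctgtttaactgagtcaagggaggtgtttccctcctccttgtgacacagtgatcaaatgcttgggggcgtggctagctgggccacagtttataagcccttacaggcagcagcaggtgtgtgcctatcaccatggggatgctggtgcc
Ifit1 and Ifit3 each held 2 separate matches on the strand opposite to the gene, and Rsad2 held 1 there. Isg15 held 3 matches on its own strand, each overlapping the next, which read as a single run. The matches lay between 156 and 57 bases before the start, counted with the first transcribed base as 0. The windows of Ifit2, which has 2 entries, and of Irf7, Oasl2 and Cmpk2 did not hold these letters. The letters of the gamma-activated site, TTCNNNGAA, which reads the same on both strands, were found in 1 of the 8 genes, Ifit2, and in 9.55% of all genes of the table. A match is a run of letters and was not tested as a binding site.

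**Figure D1:**
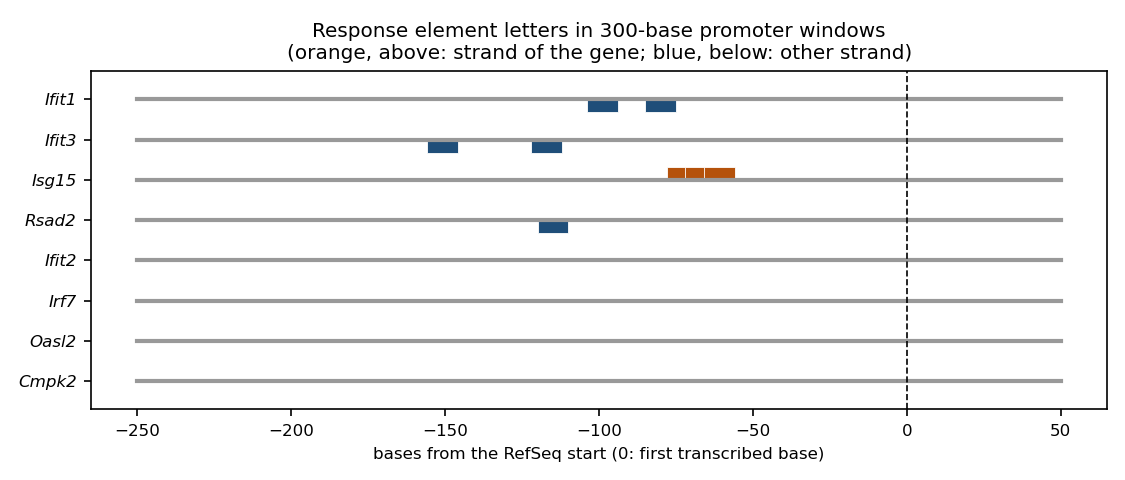
Positions of the response element core in the promoter windows of 8 interferon-stimulated genes, in bases from the RefSeq start on the x axis, with 1 line per gene. Boxes mark matches, above the line on the strand of the gene and below it on the other strand, and 4 of the 8 genes have at least 1.

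The genes lie on 7 chromosomes of GRCm38. Ifit2 (ENSMUSG00000045932), Ifit3 (ENSMUSG00000074896) and Ifit1 (ENSMUSG00000034459) stand in this order on the plus strand of chromosome 19, within 99316 bases. Rsad2 (ENSMUSG00000020641, minus strand) and Cmpk2 (ENSMUSG00000020638, plus strand) face away from each other on chromosome 12, with 12751 bases between their starts. Isg15 (ENSMUSG00000035692) lies on chromosome 4, Oasl2 (ENSMUSG00000029561) on 5, Usp18 (ENSMUSG00000030107) on 6, Irf7 (ENSMUSG00000025498) on 7 and Mx1 (ENSMUSG00000000386) on 16. Near-identical copies limit what a read count says of Ifit3. Of its windows of 75 bases, 41.1% also occurred in transcripts of Ifit3b, against 5.19% for Ifit1 with Ifit1bl2, 2.20% for Mx1 with Mx2 and 0 for the other 7 genes. On the opposite strand, Irf7 shares 45 bases with Phrf1 and Usp18 shares 15715 bases with the lincRNA Gm44148.

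Depth ranged from 27958819 to 42613423 counted reads, and the lowest count of any of the 10 genes in a library was 23, for Mx1. Cybb, the targeted gene, went against the labels. Its level in naive tissue was 47.9 ± 7.56 CPM under the CybbKO label against 5.06 ± 0.758 CPM in WT (SD, n = 3), and in ligated tissue 57.0 ± 6.31 against 12.1 ± 3.43 CPM. CPM here is the count scaled to the total counted reads of the library times its TMM factor. It was the single gene that edgeR called between the genotypes in either state (adjusted p = 0.000128 in naive and 0.00420 in ligated tissue), and counts per gene do not show where in Cybb the reads lie. Whether labels were exchanged, or transcript remains from the disrupted allele, was not tested. Directions between genotypes are therefore those of the labels. Of 10 markers of oral epithelium, 10 had counts, and their summed level was between 74023 and 144503 CPM in every library. Muc5b, a marker of salivary glands, ran from 55.6 CPM in the first to 28942 CPM in the third of the 3 naive WT libraries. Its part in the results below was not tested.

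The 10 genes were expressed at low levels in every group. Scaled by the length of their exons, Isg15 had the highest mean over the 12 libraries, with 7.79 CPM per kilobase, followed by Oasl2 with 2.83, Ifit3 with 2.58, Ifit1 with 2.48, Ifit2 with 2.11, Irf7 with 1.66, Rsad2 with 1.31, Usp18 with 1.13, Cmpk2 with 0.547 and Mx1 with 0.482 CPM per kilobase. The spread over libraries was wide against this order. Isg15 ran from 2.07 to 25.3 and Oasl2 from 0.646 to 8.28 CPM per kilobase, and each neighbouring pair in the order overlapped. For comparison on the same scale, Stat2 averaged 4.83 and Irf9 9.18 CPM per kilobase.

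None of the 10 genes was called between genotypes or for the ligature, by edgeR or by DESeq2 fitted to all 12 libraries, at an adjusted p under 0.05. In ligated tissue edgeR called 0 of 10, where it called 0.00665% of all genes, and DESeq2 called 0 of 10, where it called 0.112% of all genes. In naive tissue both tools called 0 of 10, beside 0.00665% of all genes with edgeR and 0.011% with DESeq2. The ligature in WT also gave 0 of 10 calls with both tools, against 3.2% of all genes with edgeR and 8.97% with DESeq2. In libraries labelled CybbKO the ligature gave 0 of 10 calls, against 13% with edgeR and 17.9% with DESeq2. For the change of the genotype difference with the ligature, both tools called 0 of 10, and 0% of all genes. At an unadjusted p under 0.05, edgeR held 2 of the 10 genes for genotype in ligated tissue (Oasl2 and Irf7), 1 for the ligature in WT (Rsad2) and 0 in the other 3 contrasts. Over all 15046 genes this threshold held 503 for genotype in ligated tissue, 306 in naive tissue, 342 for the change of the genotype difference, 2999 for the ligature in WT and 4172 for the ligature in libraries labelled CybbKO. In bulk tissue a fall in the number of cells of a type and a fall in RNA per cell cannot be told apart. Nothing in the labels says that libraries came from separate animals, so p-values measure the spread between these libraries.

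The fitted differences between genotypes leaned to higher levels under the CybbKO label. In ligated tissue 9 of 10 genes had a positive log2 fold change, with a median of 0.88 and a range from -0.69 to 1.78, while the median over all 15046 genes was 0.01. In naive tissue 10 of 10 were positive, with a median of 0.56 and a range from 0.25 to 0.92, while that over all genes was 0.00. For the ligature the median was 0.10 in WT, with 5 genes positive and 5 negative, and 0.32 in libraries labelled CybbKO, with 8 positive. Standard errors of single genes in these contrasts lay between 0.31 and 0.92. Leaving out the second ligated library labelled CybbKO took the ligated median to 0.28, and leaving out the third took it to 1.17. The naive median was 1.17 without the first naive WT library and 0.20 without the third. These libraries had the lowest and the highest Muc5b of that group. The ligature median went from -0.16 to 0.70 in WT, without the third and the first naive WT library, and from -0.03 to 0.58 in libraries labelled CybbKO, without the second ligated and the third naive library. The levels of the 10 genes were correlated over libraries, so their directions are not separate observations.

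**Figure D2:**
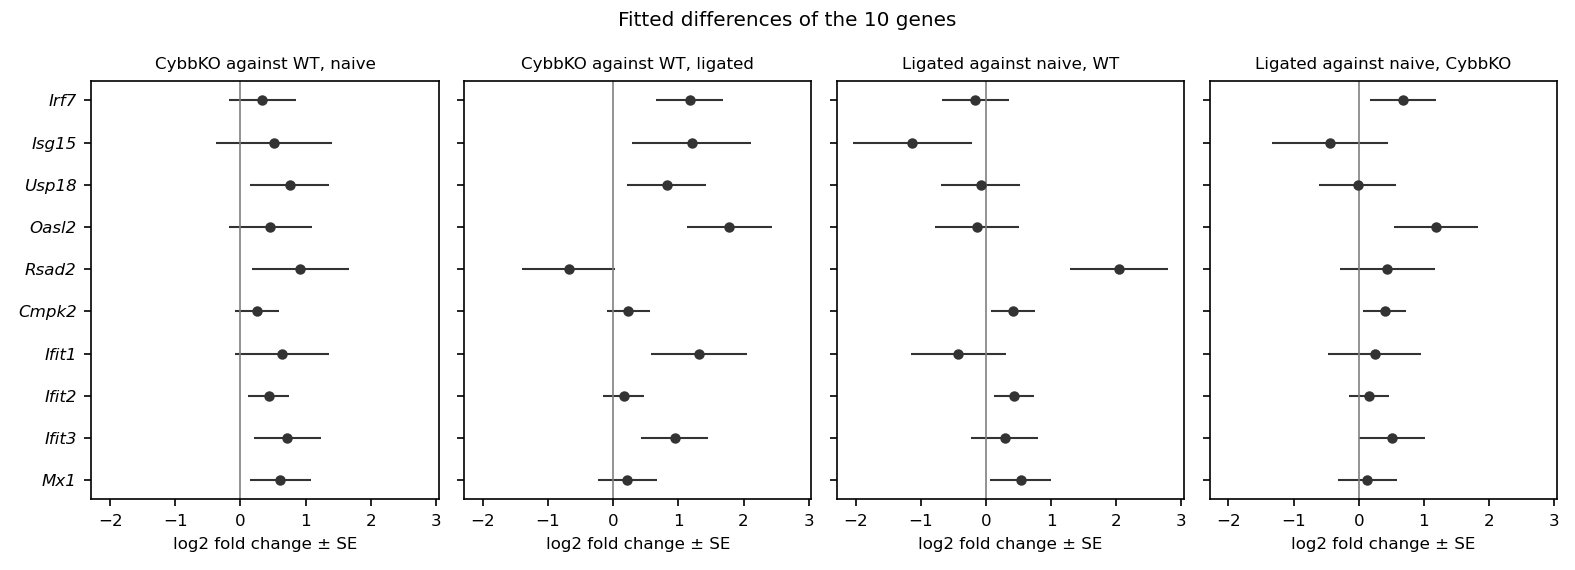
Fitted log2 fold changes of the 10 interferon-stimulated genes in 4 contrasts, from edgeR's joint fit of 12 libraries, with bars of 1 SE. In naive tissue all 10 points lie above 0, in ligated tissue all but Rsad2 do, and none passed the adjusted threshold.

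Oasl2, an oligoadenylate synthetase-like protein of the family that senses double-stranded RNA, had the largest fitted log2 fold change of the 10 genes between genotypes in ligated tissue. It was at 24.8, 4.81 and 4.12 CPM in naive WT libraries 1 to 3, at 7.16, 17.0 and 22.3 CPM in naive libraries labelled CybbKO, at 5.95, 12.6 and 12.1 CPM in ligated WT and at 25.3, 52.8 and 27.5 CPM in ligated libraries labelled CybbKO. In ligated tissue the groups did not overlap. The first naive WT library lay just below the lowest ligated library labelled CybbKO. Oasl2 was fitted 3.44-fold higher with the CybbKO label in ligated tissue (log2 fold change 1.78, SE 0.65, unadjusted p = 0.0186, edgeR adjusted p = 1.00). The exact two-sided permutation test gave p = 0.1, the smallest that 3 against 3 libraries allow. With DESeq2 on only the 6 ligated libraries, an alternative chosen after seeing the data, Oasl2 was called (log2 fold change 1.78, adjusted p = 0.00133), where that test called 0.445% of all genes. Over the other alternatives its adjusted p ran from 0.837 to 1.00. Between naive and ligated libraries labelled CybbKO the log2 fold change was 1.18 (SE 0.64, edgeR adjusted p = 0.258), and these groups did not overlap either. This contrast was called with DESeq2 on its 6 libraries (adjusted p = 0.0323), which called 15.7% of all genes.

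Irf7, the transcription factor that amplifies interferon-alpha production, was the other gene whose ligated groups were apart. It was at 8.25, 2.75 and 3.54 CPM in naive WT, at 3.93, 4.63 and 9.82 CPM in naive libraries labelled CybbKO, at 3.04, 5.13 and 4.85 CPM in ligated WT and at 6.84, 16.7 and 5.89 CPM in ligated libraries labelled CybbKO. The second ligated library labelled CybbKO stood far above the rest, and the remaining pair lay close above the WT libraries. Irf7 was fitted 2.26-fold higher with the CybbKO label in ligated tissue (log2 fold change 1.18, SE 0.51, unadjusted p = 0.0416, edgeR adjusted p = 1.00), and its log2 fold change was 0.55 without that library. All ligated libraries labelled CybbKO lay above all WT ones for 2 of the 10 genes, Oasl2 and Irf7, and for 5% of all genes. In naive tissue this held for 0 of 10 genes and for 2.08% of all genes.

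Isg15, the ubiquitin-like protein that is attached to other proteins, and Usp18, the protease that removes it and also dampens the interferon receptor, varied as much within groups as between them. Isg15 was at 13.3, 3.00 and 1.57 CPM in naive WT, at 2.02, 4.55 and 19.1 CPM in naive libraries labelled CybbKO, at 1.94, 2.15 and 4.10 CPM in ligated WT and at 3.47, 12.5 and 2.88 CPM in ligated libraries labelled CybbKO. Usp18 was at 4.69, 1.45 and 0.984 CPM in naive WT, at 1.5, 5.6 and 5.0 CPM in naive libraries labelled CybbKO, at 1.67, 1.75 and 3.35 CPM in ligated WT and at 3.6, 5.70 and 2.67 CPM in ligated libraries labelled CybbKO. Neither gene separated any of the groups compared, and the second ligated library labelled CybbKO was the highest of its group for both. The log2 fold change with the CybbKO label in ligated tissue was 1.2 for Isg15 (SE 0.91, edgeR adjusted p = 1.00) and 0.82 for Usp18 (SE 0.60, edgeR adjusted p = 1.00). Without that library these values were 0.22 for Isg15 and 0.47 for Usp18.

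Rsad2, which encodes viperin, an enzyme that turns CTP into a chain-terminating nucleotide, had its own pattern. It was at 3.44, 2.37 and 1.24 CPM in naive WT, at 2.05, 5.99 and 5.37 CPM in naive libraries labelled CybbKO, at 2.39, 3.66 and 23.2 CPM in ligated WT and at 5.77, 7.78 and 4.63 CPM in ligated libraries labelled CybbKO. The third ligated WT library stood far above the rest of its group, whose mean was 9.75 ± 11.7 CPM (SD, n = 3), and the other pair lay below all ligated libraries labelled CybbKO. The ligature contrast in WT was a log2 fold change of 2.04 (SE 0.76, unadjusted p = 0.0195, edgeR adjusted p = 0.160, DESeq2 adjusted p = 0.0993), and it was 0.36 without that library. The genotype contrast in ligated tissue turned with it, from -0.69 to 1.00. Cmpk2, the nucleotide kinase next to Rsad2 that supplies CTP, was at 1.92, 1.80 and 1.64 CPM in naive WT, at 1.39, 2.00 and 3.02 CPM in naive libraries labelled CybbKO, at 1.62, 1.99 and 3.55 CPM in ligated WT and at 3.06, 2.67 and 2.69 CPM in ligated libraries labelled CybbKO. It too was highest in the third ligated WT library, and it had the narrowest range of the 10 genes, with 2.57-fold between its lowest and highest library against 18.7-fold for Rsad2. Over the 12 libraries the log2 CPM of these neighbours had Pearson's r of 0.85.

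The Ifit genes encode proteins that bind foreign RNA and block its translation. Ifit1, which recognises caps that lack a methyl group, was at 10.6, 3.23 and 1.46 CPM in naive WT, at 3.90, 12.4 and 7.66 CPM in naive libraries labelled CybbKO, at 1.92, 4.89 and 4.59 CPM in ligated WT and at 5.74, 18.4 and 4.34 CPM in ligated libraries labelled CybbKO. Ifit3 was at 4.05, 2.88 and 1.75 CPM in naive WT, at 3.78, 5.38 and 5.19 CPM in naive libraries labelled CybbKO, at 1.72, 5.08 and 3.81 CPM in ligated WT and at 5.07, 12.4 and 2.99 CPM in ligated libraries labelled CybbKO. Both were highest in the second ligated library labelled CybbKO. At least 1 library of that group lay within the ligated WT range for each. Ifit2 was at 8.89, 6.29 and 3.86 CPM in naive WT, at 7.07, 8.93 and 9.73 CPM in naive libraries labelled CybbKO, at 7.02, 9.0 and 9.70 CPM in ligated WT and at 9.27, 12.9 and 6.53 CPM in ligated libraries labelled CybbKO. It varied less than its neighbours on chromosome 19, with 3.35-fold between the lowest and highest library against 12.6-fold for Ifit1. The log2 fold changes with the CybbKO label in ligated tissue were 1.32 for Ifit1 (SE 0.73), 0.95 for Ifit3 (SE 0.51) and 0.16 for Ifit2 (SE 0.31), each with an edgeR adjusted p of 1.00. Without the second ligated library labelled CybbKO they were 0.41, 0.19 and -0.12. Ifit3b, the copy that shares reads with Ifit3, had a log2 fold change of 1.02 (SE 0.60, edgeR adjusted p = 1.00).

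Mx1 encodes a GTPase that blocks influenza virus, and C57BL/6 mice carry an allele with a deletion in its coding exons. It was at 1.58, 0.727 and 1.57 CPM in naive WT, at 0.779, 3.44 and 1.71 CPM in naive libraries labelled CybbKO, at 1.54, 2.09 and 1.97 CPM in ligated WT and at 2.04, 1.93 and 2.53 CPM in ligated libraries labelled CybbKO. Mx1 was the lowest of the 10 genes per kilobase, and the groups overlapped in each contrast of genotype or ligature. The log2 fold change with the CybbKO label in ligated tissue was 0.21 (SE 0.45, edgeR adjusted p = 1.00).

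**Figure D3:**
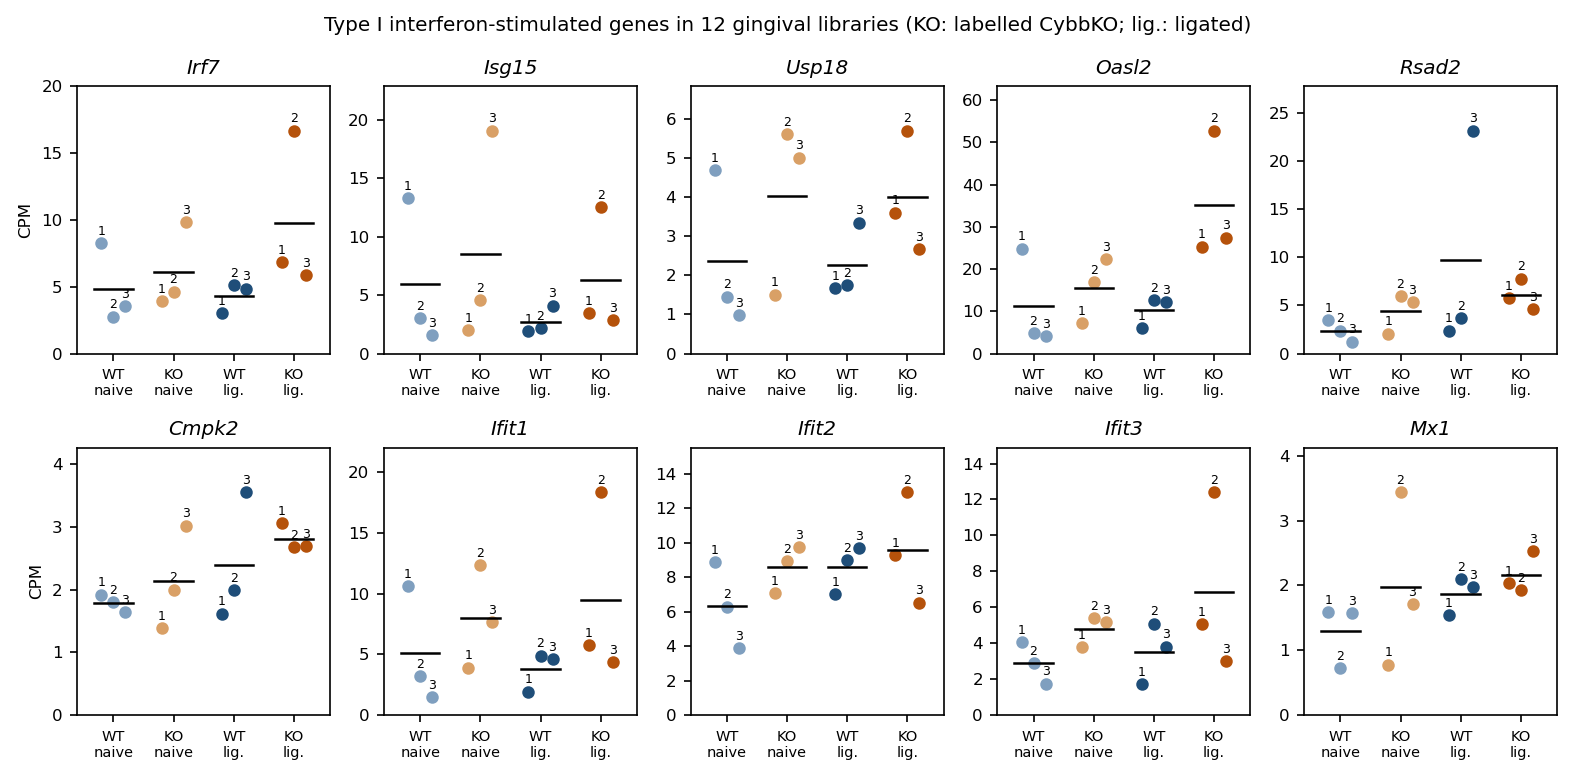
CPM of the 10 interferon-stimulated genes on a linear y axis starting at 0, with 1 point per library numbered by its replicate and a bar at the mean of each group of 3. The second ligated library labelled CybbKO is the highest of 12 for 6 genes, and the third ligated WT library is the highest for Rsad2 and Cmpk2.

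The 10 genes tended to be high or low in the same libraries. The second ligated library labelled CybbKO was the highest of the 12 for 6 of the 10 genes, and the third naive WT library was the lowest for 6. Within naive WT the first library was the highest for 10 of 10 genes. Within the naive libraries labelled CybbKO the first was the lowest for 10 of 10, and within ligated WT the first was also the lowest for 10 of 10. With each gene scaled to a mean of 0 and an SD of 1 over the 12 libraries, the mean of the 10 genes was 0.44, -0.93 and -1.34 in naive WT, 0.52 and 0.77 in the second and the third naive libraries labelled CybbKO and -0.83 in the first, -0.91, -0.09 and 0.46 in ligated WT, and 0.45, 1.37 and 0.09 in ligated libraries labelled CybbKO. On this scale the ligated groups overlapped, since the third ligated WT library lay between the libraries labelled CybbKO.

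**Figure D4:**
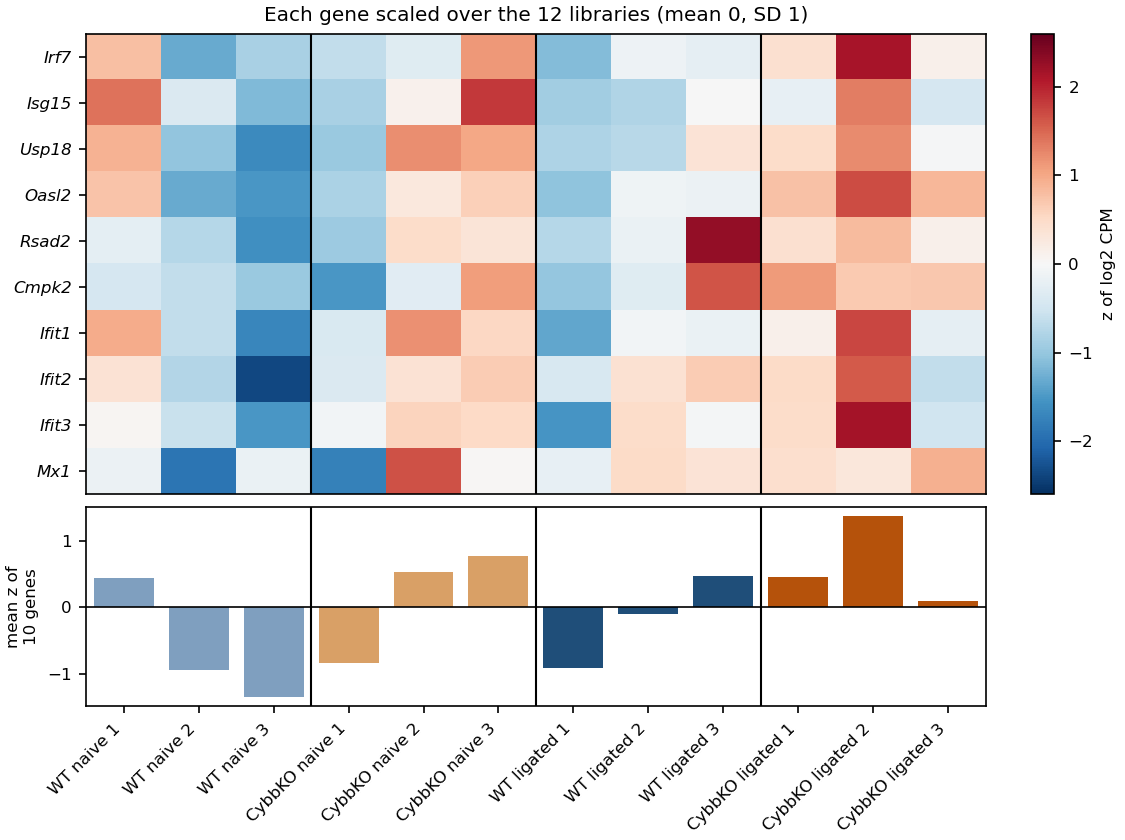
Heat map of log2 CPM of the 10 genes, each scaled to a mean of 0 and an SD of 1 over the 12 libraries, above a bar chart of the mean over the genes in each library. High libraries stand beside low ones in the same group, from -1.34 to 0.44 in naive WT and from 0.09 to 1.37 in ligated tissue labelled CybbKO.

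The genes moved together from library to library. The 45 pairs of genes had a median Pearson's r of 0.68 over the 12 libraries and a median Spearman's rho of 0.70, with r from 0.19 for Isg15 and Mx1 to 0.91 for Oasl2 and Irf7. The median r was 0.64 after the mean of each group was subtracted, and 0.58 without the second and the third naive WT libraries, which lay farthest from the median of the scaled mean. All 45 values were positive in each case. Mx1 had the lowest median r with the other members, 0.41, and Ifit1 the highest, 0.80. These values describe 12 libraries that share groups and tissue, and no p is given. Outside the 10 genes, tested genes whose log2 CPM followed the scaled mean closely over the 12 libraries included Trim34a (r = 0.931), Irgm1 (0.927), Xaf1 (0.921), Gbp6 (0.913), Ifi44 (0.912), Gbp3 (0.909), Oas1a (0.908), Rtp4 (0.907) and Ifih1 (0.906). Each of these genes kept an r of at least 0.856 without the 2 farthest libraries and of at least 0.880 around the group means.

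The genes of the interferons themselves gave almost no reads. Of 18 type I interferon genes in the table, 11 had 0 counts in all 12 libraries, and the other 7 had 37 counts in total with at most 3 in a library. Ifnb1 had 1 count in all, and Ifnk, an interferon of keratinocytes, had 0. A count of 0 allows up to 3 counts, or between 0.0685 and 0.109 CPM depending on the library. The type I genes together had 3 counts in naive WT, 14 in naive libraries labelled CybbKO, 13 in ligated WT and 7 in ligated libraries labelled CybbKO. Ifng had 26 counts over the 12 libraries, namely 8, 0 and 0 in naive WT, 0, 0 and 3 in naive libraries labelled CybbKO, 0, 1 and 3 in ligated WT and 1, 6 and 4 in ligated libraries labelled CybbKO. No ligand passed the filter on low counts, so differences between groups were not tested.

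Stat2 and Irf9, which take part in binding the response element, were apart between the ligated groups but were not called. Stat2 was between 22.6 and 28.2 CPM and between 30.7 and 46.3 CPM in ligated WT and in ligated libraries labelled CybbKO (log2 fold change 0.52, SE 0.24, edgeR adjusted p = 1.00). Irf9 was between 37.6 and 43.9 CPM and between 47.8 and 77.7 CPM (0.54, SE 0.26, edgeR adjusted p = 1.00). Of 12 receptor and signalling genes, 2 rose with the ligature in libraries labelled CybbKO, the receptor chains Ifnar1 (log2 fold change 0.52, edgeR adjusted p = 0.0284) and Ifnar2 (0.99, edgeR adjusted p = 0.0134), where 9.95% of all genes were called higher. Ifnar2 went from 9.31 ± 0.798 to 18.4 ± 2.66 CPM (SD, n = 3). Leaving out 1 library of the contrast left between 0 and 2 of these calls, with 0 without the second naive and without the first or the third ligated library.

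Sensors of nucleic acid act upstream of interferon. Of 19 sensors and inducers, edgeR called 9 higher and 0 lower with the ligature in libraries labelled CybbKO, where it called 9.95% of all genes higher, and DESeq2 called 9 higher and 1, Irf3, lower. Those that edgeR called were the endosomal receptors Tlr7 (log2 fold change 1.93), Tlr8 (1.83), Tlr9 (1.38) and Tlr3 (0.99), the STING gene Tmem173 (1.87), the Z-form nucleic acid sensor Zbp1 (1.82), the RIG-I gene Ddx58 (0.76) and the transcription factors Irf8 (1.5) and Irf1 (1.08), with edgeR adjusted p from 0.00279 for Tmem173 to 0.0484 for Zbp1. Tlr7, Tlr8, Tlr9 and Irf8 are genes of leukocytes, and the summed level of 5 leukocyte markers went from between 55.2 and 76.2 CPM in naive to between 154 and 299 CPM in ligated libraries labelled CybbKO. Its part in these calls was not tested. In WT the ligature gave 0 calls among the 19 with edgeR and 2 with DESeq2, Tmem173 and Ddx58, beside 3.2% and 8.97% of all genes, and 4 of the 19 had an unadjusted p under 0.05. Leaving out libraries of the contrast labelled CybbKO gave 5 calls without the first naive, 5 without the second naive, 6 without the third naive, 4 without the first ligated, 8 without the second ligated and 4 without the third ligated library.

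Some other interferon-stimulated genes rose with the ligature. Of 36 tested genes of a wider list, 11 rose in libraries labelled CybbKO and 0 fell, where 9.95% of all genes were called higher, with a median log2 fold change of 0.66, while 0 of the 10 were called at a median of 0.32. The difference between these lists was not tested. In the same contrast the summed markers of leukocytes went from between 55.2 and 76.2 to between 154 and 299 CPM, of fibroblasts from between 1390 and 1872 to between 3867 and 10396 CPM and of endothelium from between 118 and 135 to between 214 and 305 CPM, and their part in the calls was not tested. Those that rose were Epsti1 (log2 fold change 1.59), Lgals3bp (1.37), Slfn8 (1.18), Slfn5 (1.17), Sp100 (1.12), Parp14 (1.05), Apobec3 (1.04), Helz2 (1.00), Ifitm3 (0.96), Parp12 (0.67) and Tdrd7 (0.50), with edgeR adjusted p from 0.00388 for Helz2 to 0.0440 for Slfn8. Ifitm3 blocks the entry of enveloped viruses and Apobec3 edits retroviral DNA. Epsti1 was at 1.27 ± 0.233 CPM in naive and 3.83 ± 0.144 CPM in ligated libraries labelled CybbKO (SD, n = 3). In WT 1 of 36 rose, Slfn5 (log2 fold change 1.07, edgeR adjusted p = 0.0387), where 2.31% of all genes were called higher. DESeq2, which tested 37 of the list, called 5 in WT and 13 in libraries labelled CybbKO, where it called 8.97% and 17.9% of all genes in either direction. The single edgeR call in WT was lost without the first or the second naive WT, the second or the third ligated WT, or the third naive or the third ligated library labelled CybbKO. The count of 11 was 5 without the first and 7 without the second naive library, and 5 without the third ligated library labelled CybbKO. Of the 10 genes, 1 had all ligated libraries labelled CybbKO above all naive ones (Oasl2), and of the 36 genes 20 did, against 18.5% of all genes. In WT 0 of the 10 and 6 of the 36 had all ligated libraries above all naive ones, against 13.3%. Between genotypes in ligated tissue 0 of 36 were called, 11 had an unadjusted p under 0.05 (503 of 15046 over all genes), and 34 had positive log2 fold changes with a median of 0.56. The second ligated library labelled CybbKO was the highest of 12 for 26 of the 36 genes, and the median was 0.41 without it.

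**Figure D5:**
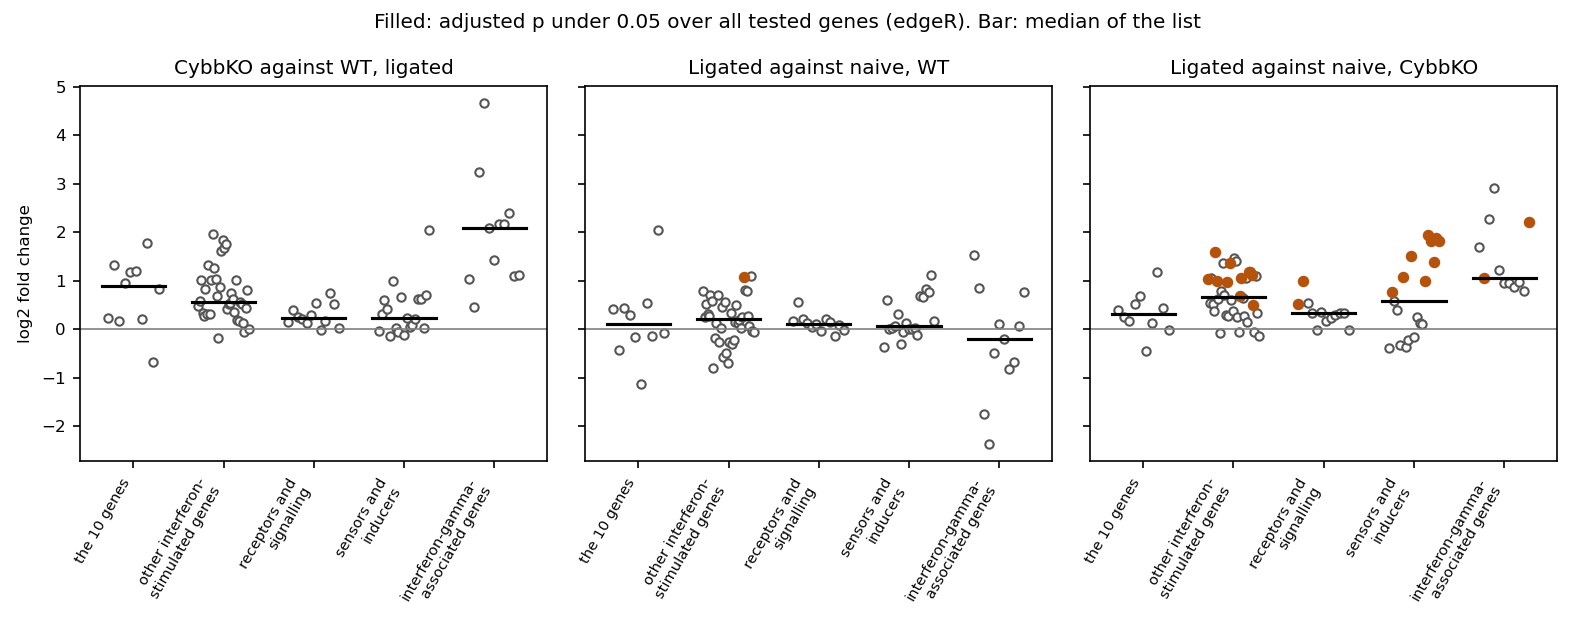
Log2 fold changes of single genes (circles) in 5 lists for 3 contrasts, with a bar at each list's median, where filled circles passed an adjusted p of 0.05 in edgeR over all tested genes. None of the 10 genes is filled in any panel, while 11 of 36 other interferon-stimulated genes and 9 of 19 sensors and inducers are filled for the ligature in libraries labelled CybbKO.

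The counts of the next lists are to be read against the 9.95% of all genes called higher with the ligature in libraries labelled CybbKO. Of 4 genes of ISG15 conjugation, 1 rose with the ligature in libraries labelled CybbKO, the activating enzyme Uba7 (log2 fold change 1.25, edgeR adjusted p = 0.0379), and 0 were called in WT or between genotypes. Ube2l6, the conjugating enzyme, reached 29.7 CPM in its highest ligated WT library and 28 CPM in its highest ligated library labelled CybbKO. Of 7 tested genes that restrain the pathway, 1 rose, Socs3 (1.67, edgeR adjusted p = 0.0146), an inhibitor of cytokine receptor kinases, from 15.4 ± 6.01 to 48.8 ± 13.1 CPM (SD, n = 3). DESeq2 called 2 of these 7 and 1 of the 4 conjugation genes higher, where it called 17.9% of all genes in either direction. The effect of leaving out 1 library is not reported for these lists.

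Among the ligated libraries labelled CybbKO, summed leukocyte markers did not have the order of the 10 genes. The summed level of 5 leukocyte markers was between 96.0 and 183 CPM in ligated WT and 259, 154 and 299 CPM in ligated libraries labelled CybbKO, so the library highest in most of the 10 genes was the lowest of its group. The same held for 12 markers of monocytes and macrophages, at 227, 168 and 231 CPM, all above the 110 to 160 CPM of ligated WT. It also held for 11 neutrophil markers, at 4447, 2510 and 11671 CPM, against 1351 to 3785 CPM in ligated WT. The 10 matched markers of T and NK cells were at 17.3, 18.5 and 21 CPM, all above the 9.24 to 16.2 CPM of ligated WT. The sums for monocytes and macrophages and for T and NK cells thus separated the ligated genotypes in the same direction as Oasl2 and Irf7. In ligated libraries labelled CybbKO, oral epithelium was at 81207, 124134 and 74093 CPM and fibroblasts at 10396, 3867 and 9404 CPM. Ligated WT had 74023 to 108483 and 5001 to 8036 CPM. Skeletal muscle was at 898, 2615 and 778 CPM (499 to 2323 in ligated WT) and the Y chromosome at 329, 142 and 222 CPM (224 to 268). The second library was the highest or the lowest of its group in each. Plasmacytoid dendritic cells are a main source of interferon-alpha. Of 7 tested markers of them, 4 had a positive log2 fold change between the ligated genotypes, with a median of 0.02 and 0 calls. This list mixed genes of unlike level, so its median says little of these cells. Ly6d ran from 542 to 1089 CPM over the 12 libraries. Siglech was between 1.19 and 1.74 CPM in ligated WT and lower, between 0.909 and 1.14 CPM, in ligated libraries labelled CybbKO. The part of any of these cells in the differences was not tested.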

How the data were processed

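RNA from gingival tissue was measured in 12 libraries, grouped by their titles. Values deposited by the authors are raw counts of reads per gene, not normalized. Their methods name stranded mRNA libraries, STAR, GRCm38 and featureCounts, while the submitters' processing notes name HTSeq 0.10.0 and FastQC 0.10.1, so the counting tool is not settled. CPM was the count divided by the library total times its TMM factor. Log2 CPM (prior count 2) and tests were computed with edgeR 4.0.16 in R 4.3.3, in a joint quasi-likelihood fit of 12 libraries after filterByExpr, with Benjamini-Hochberg adjustment over 15046 genes and calls at an adjusted p under 0.05. DESeq2 1.42.0, other normalizations and filters, and each library left out in turn were alternatives. The spread between libraries (biological coefficient of variation 0.240) limits precision more than depth. Fits were tested on simulated data. Reference symbols matched 21939 of 21965 genes. The members and lists were chosen with earlier results of these data known. All 10 members are named, and of the other lists the counts and the genes called, or those the naming rule lists (Ifnb1, Ifng, Ifnk, Stat2, Irf9, Ifnar1, Ifnar2), plus genes most like the members. The results of 1 gene that this rule names are not reported here. Ube2l6, Ifit3b, Gbp5, Cxcl9, Trex1, Irf3, Muc5b, Siglech, Ly6d and the genes named as having the matched sequence were picked after their values were seen. Markers of B and plasma cells, fibroblasts, endothelium, skeletal muscle and the Y chromosome were measured too: their summed CPM over the 12 libraries, with those of fibroblasts and endothelium higher in ligated than in naive tissue, ran from 199 to 301, from 1390 to 10396, from 106 to 305, from 499 to 2823 and from 142 to 329.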

Additional observations from a re-analysis of the deposited data

How the results depend on the processing

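No alternative listed at the outset called any of the 10 genes. DESeq2 on only the 6 libraries compared, added after seeing the data, called 1 gene higher, Oasl2, for genotype in ligated tissue and 1, again Oasl2, for the ligature in libraries labelled CybbKO. Medians over the 10 genes moved by less than the spread between libraries (SD 0.80 on the log2 scale) under every alternative. Leaving out 1 of 3 libraries moves a group mean by only part of that library's distance, so this bound says little about stability. With 1 library left out the sign of 3 medians turned. The median for the change of the genotype difference went from 0.14 to as low as -0.51. The others went to as low as -0.16 for the ligature in WT and -0.03 in libraries labelled CybbKO. The replicate numbers did not pair the libraries (2 of 18 same-numbered pairs had a correlation of deviations above 0.1, range -0.23 to 0.28). With the replicate number as a block, 0 of 10 genes were called in all 5 contrasts, and the ligated median was 0.81. Of 980 single-gene values under alternatives, 928 kept direction and call, 2 became calls and 50 turned sign. With the replicate block Cmpk2 turned to 0.12 for the change of the genotype difference. Scaled by library size only, Usp18 turned to 0.025 for the ligature in WT and 0.035 in libraries labelled CybbKO. With 1 library left out, the range of log2 fold changes for genotype in ligated tissue was -0.12 to 0.37 for Ifit2, -1.18 to 1.00 for Rsad2 and -0.00017 to 0.64 for Cmpk2. For genotype in naive tissue it was -0.86 to 1.90 for Isg15, -0.056 to 1.00 for Mx1, -0.18 to 0.96 for Irf7 and -0.079 to 0.49 for Cmpk2. For the change of the genotype difference it was -0.44 to 1.14 for Ifit1, -0.53 to 0.58 for Ifit3, -0.69 to 2.06 for Isg15, -2.10 to 0.080 for Rsad2, -0.78 to 0.27 for Mx1, -0.010 to 1.72 for Oasl2, -0.90 to 0.46 for Usp18 and -0.26 to 0.38 for Cmpk2. For the ligature in WT it was -0.86 to 0.69 for Ifit1, -0.070 to 0.65 for Ifit3, -1.58 to 0.25 for Isg15, -0.53 to 1.19 for Oasl2, -0.48 to 0.88 for Usp18 and -0.45 to 0.47 for Irf7. For the ligature in libraries labelled CybbKO it was -0.66 to 0.71 for Ifit1, -0.12 to 0.37 for Ifit2, -0.25 to 0.87 for Ifit3, -1.43 to 0.93 for Isg15, -0.25 to 0.80 for Mx1 and -0.41 to 0.29 for Usp18. The cause of these turns was not tested. Over all genes, 481 calls for the ligature in WT became 1374 with DESeq2, 271 with the replicate block and between 27 and 900 with 1 library left out, where 27 was without the second naive WT library and 900 without the second ligated library labelled CybbKO.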

Other observations

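Genes that classically follow interferon-gamma leaned the same way between genotypes in ligated tissue. Of 12 such genes 11 were tested, and 11 of 11 had a positive log2 fold change with the CybbKO label, with a median of 2.08, and 10 of 11 had all libraries labelled CybbKO above all WT libraries, which held for 5% of all genes. EdgeR called 0 of the 11, an unadjusted p under 0.05 was reached by 9 (503 of 15046 over all genes), and 1 passed in DESeq2, Gbp5, a GTPase of the immunity to intracellular bacteria (log2 fold change 2.16, SE 0.53, DESeq2 adjusted p = 0.0213), where DESeq2 called 0.112% of all genes. Gbp5 was between 1.52 and 3.66 CPM in ligated WT and between 6.97 and 20.4 CPM in ligated libraries labelled CybbKO. Cxcl9, a chemokine for T cells, was between 0.299 and 3.04 CPM in ligated WT and between 7.13 and 74.6 CPM in ligated libraries labelled CybbKO, but reached 18.9 CPM in a naive WT library. The second ligated library labelled CybbKO was the highest of 12 for 11 of 11 genes, and the median log2 fold change was 1.15 without it. With the ligature in libraries labelled CybbKO edgeR called 2 of 11 higher, Nos2 (log2 fold change 2.20) and Ciita (1.06), beside 9.95% of all genes, and in WT 0 of 11, beside 2.31%. DESeq2, which tested 12 of them, called 3 in libraries labelled CybbKO and 2 in WT, beside 17.9% and 8.97% of all genes called in either direction. Summed leukocyte markers went from between 55.2 and 76.2 to between 154 and 299 CPM with the ligature in libraries labelled CybbKO. The part of cell numbers in these differences was not tested. Trex1, a nuclease that restrains the sensing of DNA, is listed at 0 in all 12 libraries. Whether it is not expressed, or its reads were lost in counting, was not tested.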
